A study of Mus musculus with 96 samples.

Results

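The 16 libraries examined here are all those taken at circadian time 4 (CT4, 4 h into the subjective day) from a series of 96 libraries of mouse back-skin epidermis. They were chosen by their labelled time alone, and they hold 4 genotypes with 4 biological replicates each. All mice were 8-week-old C57BL/6 females, kept in constant darkness for 156 to 176 h before the epidermis was peeled off with dispase and its polyadenylated RNA sequenced. RERE mice carried Arntl stopFL/stopFL with K14Cre tg/wt and Syt10-Cre tg/wt. EpiRE mice carried Arntl stopFL/stopFL with K14Cre tg/wt and Syt10-Cre wt/wt. BRE mice carried Arntl stopFL/stopFL with K14Cre wt/wt and Syt10-Cre tg/wt. WT mice carried Arntl wt/wt together with K14Cre wt/tg and Syt10-Cre tg/wt. RERE, EpiRE and BRE thus share the stopped allele and differ in where Cre removes the stop, while WT mice carry both Cre drivers as RERE mice do. By these drivers and the series text, clock activity is meant for brain and epidermis in RERE, epidermis in EpiRE, brain in BRE and all tissues in WT. The question at this single time is which epidermal transcripts stand at another level when the clock gene is restored in only some tissues.

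The mammalian clock is a feedback loop. BMAL1 (from Arntl) pairs with CLOCK or NPAS2 and switches on genes that carry E-box motifs, among them the Per and Cry repressors, the REV-ERB repressors Nr1d1 and Nr1d2, and output factors such as Dbp. PER and CRY proteins shut BMAL1 off, while REV-ERB and ROR proteins compete on another motif to repress or activate genes such as Npas2 and Cry1. In epidermis this loop is known for its ties to the timing of cell division and DNA repair. K14Cre is driven by the keratin 14 promoter of basal keratinocytes, and Syt10-Cre is used to reach the suprachiasmatic nucleus, the brain's central pacemaker. Non-keratinocytes of the skin, and other tissues, are outside both drivers as far as these drivers are specific.

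The genotypes were deposited in 4 tables, scaled by library total alone, and values at 0 reads differed between tables by up to 0.058 (log2). Levels are given as reads per kilobase of gene and 1 M library reads (RPKM), and differences as log2 of the ratio. The 11045 genes whose mean over the libraries reached 1 RPKM (0 on the log2 scale) were tested, with limma's moderated test over the 16 libraries, and an adjusted p under 0.05 was called. Library totals recovered from the values ran from 12 to 17.7 M reads (median 16 M). Between 15448 and 15974 genes were seen in each. Keratinocyte markers were high in every library: the 13 basal genes summed to between 12200 and 18100 RPKM, and 19 suprabasal genes to between 11900 and 21400 RPKM. The 6 fibroblast markers summed to between 0.684 and 2.93 RPKM, and those of endothelium, muscle and adipocytes to at most 0.903 RPKM, whereas 7 T cell markers summed to between 95.2 and 134 RPKM. None of these markers was at 0 in all 16 libraries. In BRE and EpiRE the assignment of libraries to CT4 rests on the column names of a single kind of table, because library codes in a second kind of table run out of order in these genotypes. WT replicates 3 and 4 stood apart on the first principal component of the 16 libraries (26.58 and 21.57, against -0.80 and 3.71 for WT replicates 1 and 2), and BRE replicate 3 on the second (-30.43, the other 15 lying between -12.75 and 10.67). The components held 19.5% and 12.5% of the variance. BRE replicates 1 and 2 lay at the other end of the first component (-19.67 and -20.48, against 2.94 and -10.11 for BRE replicates 3 and 4). Counts of called genes without these libraries, and named calls lost without them, are given with the comparisons.

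Arntl itself (ENSMUSG00000055116; chromosome 7, 113207465 to 113314126, mm10), is the targeted gene. It had 13.8, 19.8, 23.7 and 19.7 RPKM in RERE, 12.5, 18, 13.5 and 20.6 RPKM in EpiRE, 14.2, 14.5, 14.2 and 14.0 RPKM in BRE and 19.9, 12.9, 15.1 and 15.7 RPKM in WT. The ranges of all 4 groups overlapped, and BRE lay -0.14 ± 0.17 (log2, SE) from WT (95% interval -0.50 to 0.22; adjusted p = 0.668). None of the 6 comparisons called Arntl. Reads were summed over the gene, and the place of the stop within it is not stated, so this level mixes stopped with complete transcripts and does not check the genotype. Its 4 BRE libraries lay between 14.0 and 14.5 RPKM, with an SD of 0.02 in BRE, against 0.26 in WT (log2).

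The 6 comparisons between genotypes gave very unequal numbers of called genes. BRE differed from WT in 375 genes (3.40% of those tested), of which 113 were higher (1.02%) and 262 lower (2.37%) in BRE. EpiRE differed from WT in 19 genes (0.172%), 10 higher (0.0905%) and 9 lower (0.0815%). RERE differed from WT in 1 gene (0.00905%). EpiRE differed from BRE in 192 genes (1.74%) and RERE from BRE in 56 (0.507%), 33 higher (0.299%) and 23 lower (0.208%) in RERE, while RERE and EpiRE differed in none. A test of any difference among the 4 genotypes called 198 genes (1.79%). The counts for RERE and EpiRE rest on few libraries. Without WT replicate 1 they became 156 for RERE against WT and 435 for EpiRE against WT, and 0 genes differed between EpiRE and WT without WT replicate 2. At an unadjusted p under 0.05 there were 1676 genes for RERE against WT, 1924 for EpiRE against WT and 742 for RERE against EpiRE. A count of 0 or 1 is therefore no sign that these groups are alike.

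**Figure D1:**
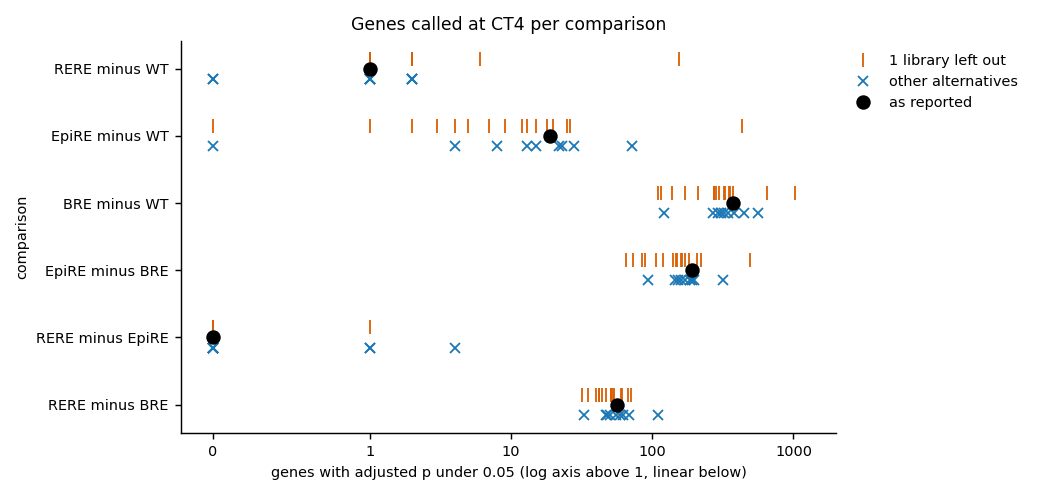
Number of genes with an adjusted p under 0.05 in each of the 6 comparisons at CT4 (rows; x axis, gene count, logarithmic above 1). Black points are the counts as reported (1, 19, 375, 192, 0 and 56 from top to bottom), orange ticks leave out 1 library each, and blue crosses are the other alternatives. BRE against WT stays at 110 genes or more throughout, whereas EpiRE against WT spans 0 to 435.

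BRE against WT was led by clock genes. Of 19 core clock genes tested, 8 were called, 2 higher and 6 lower in BRE, where 3.40% of all genes were called (1.02% higher and 2.37% lower). The list's median size of difference was 0.74, against 0.13 over all genes tested (log2, without sign). The 4 genes of smallest p were Nr1d1, Nr1d2, Cdc25b and Cry1. These clock genes were known from earlier results of the same data when they were listed, so their count is a description.

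Among the repressors that read the ROR motif, Nr1d1 (REV-ERB alpha; ENSMUSG00000020889; chromosome 11, 98767932 to 98775333) was the most changed gene. It had 4.78, 4.41, 4.83 and 4.58 RPKM in BRE, against 130, 147, 161 and 155 RPKM in WT. Every BRE library was below every WT library, and the difference of -4.99 ± 0.15 made it 31.8-fold lower in BRE (adjusted p = 4.97e-12). Its paralog Nr1d2 (REV-ERB beta) had 4.01, 3.36, 4.02 and 3.62 RPKM in BRE, against 28.7, 35.0, 32.7 and 30 RPKM in WT, which is 8.42-fold lower in BRE (-3.07 ± 0.16; adjusted p = 9.18e-09). Nr1d1 still had at least 177 reads in each BRE library, so it was low and not silent. A gene on the opposite strand overlaps Nr1d1, and the use of strand in counting is not stated, so some of these reads may belong to that gene.

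Cry1 and Npas2, which REV-ERB proteins are known to repress, rose in BRE. Cry1 (ENSMUSG00000020038; chromosome 10, 85131700 to 85185064), a repressor of BMAL1, had 36.8, 36.2, 41.5 and 38.2 RPKM in BRE, against 5.59, 3.23, 3.98 and 3.35 RPKM in WT. The groups did not overlap and Cry1 was 9.69-fold higher in BRE (3.28 ± 0.19; adjusted p = 2.94e-08). Npas2 (ENSMUSG00000026077; chromosome 1, 39193731 to 39363236), which can replace CLOCK beside BMAL1, had 17.6, 18.8, 22.6 and 24.3 RPKM in BRE, against 6.69, 4.63, 5.31 and 7.60 RPKM in WT, a 3.47-fold rise (1.79 ± 0.30; adjusted p = 0.00379). The other activators did not pass: Clock differed by 0.23 and Arntl2 by -0.20.

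Dbp, Per3, Ciart and Bhlhe40 fell in BRE. Dbp (ENSMUSG00000059824; chromosome 7, 45705088 to 45710203), a PAR bZIP factor that carries the rhythm to other genes, had 4.18, 4.40, 4.37 and 5.6 RPKM in BRE, against 26.8, 54.9, 56.8 and 48.8 RPKM in WT. It was 9.75-fold lower in BRE (-3.29 ± 0.49; adjusted p = 0.00194). Per3, a period gene, had 3.02, 2.31, 2.14 and 2.45 RPKM in BRE, against 6.15, 10.7, 6.29 and 5.72 RPKM in WT, 2.83-fold lower (adjusted p = 0.0162). Ciart, a repressor of the loop also called CHRONO, had 0.496, 0.991, 0.537 and 0.657 RPKM in BRE, against 2.07, 3.14, 1.61 and 1.5 RPKM in WT, 3.08-fold lower on 17 to 42 reads per BRE library (adjusted p = 0.0351). Bhlhe40 (DEC1) had 33.8, 46.4, 19 and 35.4 RPKM in BRE, against 61.5, 62.8, 92.2 and 68.4 RPKM in WT, 2.19-fold lower (adjusted p = 0.0191). Neither the Ciart nor the Bhlhe40 call held without WT replicate 3 or without WT replicate 4, and that of Ciart was also lost without WT replicate 2, BRE replicate 1 or BRE replicate 4. The PAR bZIP factor Tef differed by -0.74 ± 0.28 and did not pass (adjusted p = 0.15), although its BRE and WT libraries did not overlap.

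Other members of the loop did not pass in BRE. Per2 had 3.30, 5.89, 6.88 and 1.94 RPKM in BRE, against 1.17, 2.72, 1.56 and 0.777 RPKM in WT. The ranges overlapped, and its difference of 1.52 had an interval of 0.09 to 2.95 (adjusted p = 0.216). Per1 differed by -0.47, Cry2 by 0.06, Hlf by -0.16, Nfil3 by 0.66, Rora by 0.06 and Usp2 by 0.19. All 8 tested kinases, ubiquitin ligase parts and RNA-binding cofactors of the loop, such as the kinase Csnk1d, were outside the calls, with a median of -0.01. Of 8 clock-controlled output genes 1 was called, where 3.40% of all genes tested were. It was Klf9, a Krüppel-like factor, 1.97-fold lower in BRE (-0.97 ± 0.14, adjusted p = 0.00137).

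**Figure D2:**
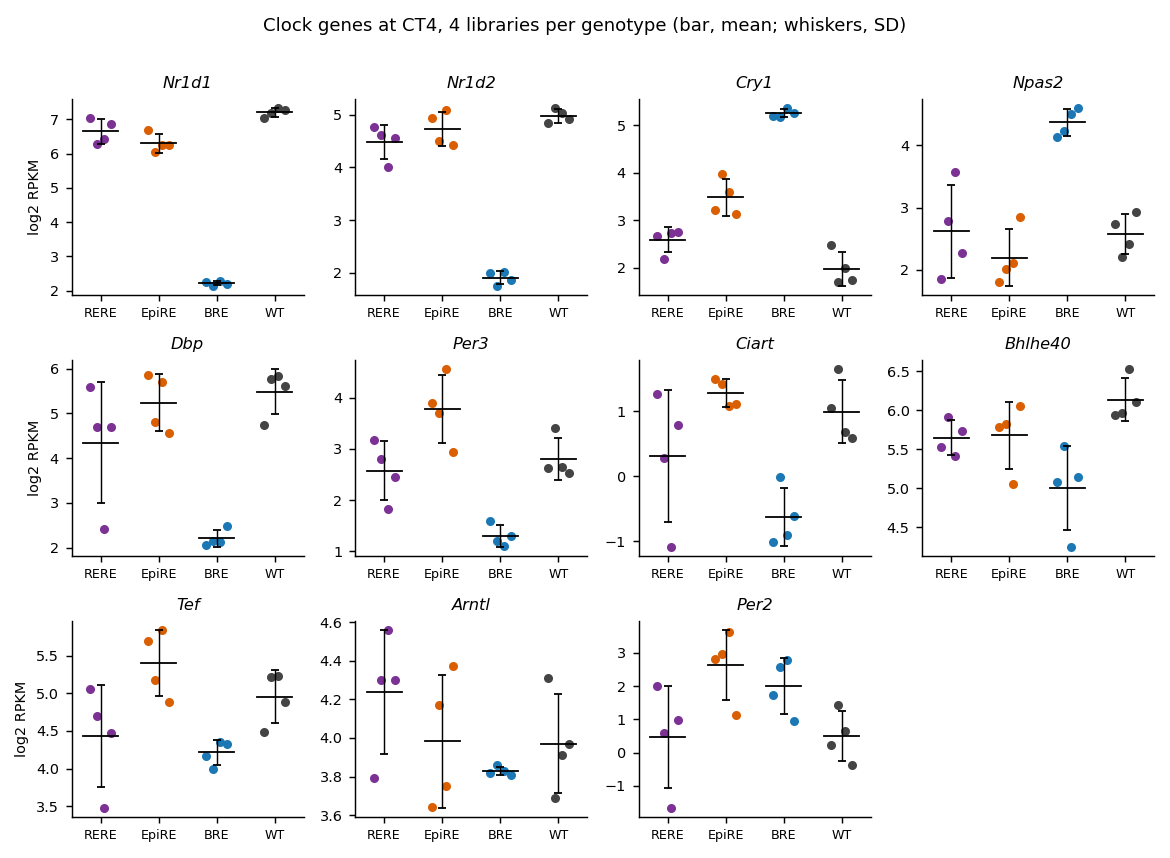
Levels of 11 clock genes at CT4 in log2 RPKM (y axes, each on its own range) for RERE, EpiRE, BRE and WT. Each point is a library, bars are means and whiskers the SD of 4 libraries. Nr1d1, Nr1d2 and Dbp lie lowest, and Cry1 and Npas2 highest, in BRE, while Arntl overlaps among the 4 genotypes.

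The promoters of 3 of these genes are shown because they carry, within the 250 bases before the annotated start, a motif through which the loop is known to act. They are from RefSeq (GRCm38.p6, the assembly of mm10), each read 5′ to 3′ on the gene's strand, with motif matches in capitals. CACGTG is the canonical E-box of BMAL1 and TTATGTAA the D-box of DBP and TEF, both searched on either strand.
Cry1: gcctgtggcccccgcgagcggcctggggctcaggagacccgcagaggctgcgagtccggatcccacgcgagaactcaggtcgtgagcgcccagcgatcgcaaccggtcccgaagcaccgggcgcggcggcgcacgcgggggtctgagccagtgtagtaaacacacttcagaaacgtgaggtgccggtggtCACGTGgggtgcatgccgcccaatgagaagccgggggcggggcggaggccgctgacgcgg
Ciart: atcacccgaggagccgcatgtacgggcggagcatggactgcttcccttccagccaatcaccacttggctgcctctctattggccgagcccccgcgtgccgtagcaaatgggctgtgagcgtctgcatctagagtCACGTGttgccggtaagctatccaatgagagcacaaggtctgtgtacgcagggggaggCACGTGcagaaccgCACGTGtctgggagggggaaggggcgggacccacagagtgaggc
Per3: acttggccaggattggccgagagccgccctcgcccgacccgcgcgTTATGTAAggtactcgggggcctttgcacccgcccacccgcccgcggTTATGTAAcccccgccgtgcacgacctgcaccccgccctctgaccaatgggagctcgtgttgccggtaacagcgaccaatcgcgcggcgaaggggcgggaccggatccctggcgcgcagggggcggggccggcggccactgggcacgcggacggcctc
The Cry1 window is chr10:85185055-85185304, that of Ciart chr3:95882229-95882478 and that of Per3 chr4:151044666-151044915, all on the minus strand. Cry1 holds 1 E-box and Ciart 3, and Per3 holds 2 D-boxes. Of 32851 promoter windows of this length, 6.02% hold a CACGTG and 0.819% a TTATGTAA. Of the 9 core clock genes called in any comparison, 8 had an entry; 3 of them hold the E-box (Tef besides the pair shown), 1 the D-box and none the ROR motif TAGGTCA, which 2.23% of all windows hold. The Cry1 and Ciart E-boxes stood before genes that moved in opposite directions in BRE. A match of letters is a description, and the windows do not cover introns or distant elements.

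**Figure D3:**
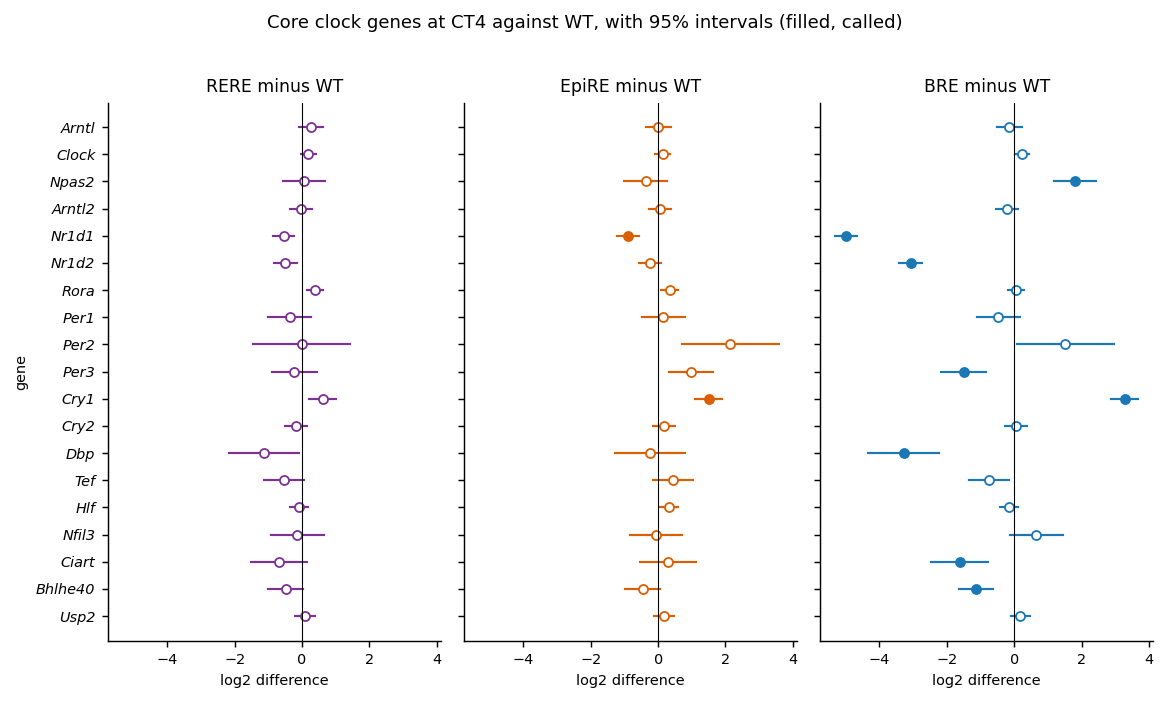
Log2 difference from WT (x axis) of the 19 core clock genes (y axis) in RERE, EpiRE and BRE at CT4, with 95% intervals from limma. Filled points are called: 0 in RERE, 2 in EpiRE (Nr1d1 lower and Cry1 higher) and 8 in BRE. Per2 has the widest intervals, which cover 0 in RERE (-1.45 to 1.42) but not in EpiRE (0.71 to 3.58) or BRE (0.09 to 2.95), where it was not called.

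Outside the clock, genes lower in BRE included enzymes and signalling and division genes. Here and below, genes taken for the size of their difference were named only where the compared groups did not overlap. For them a lack of overlap adds no separate support. Cdc25b (ENSMUSG00000027330; chromosome 2, 131186949 to 131198497), a phosphatase that licenses entry into mitosis, had 9.44, 8.60, 7.62 and 7.72 RPKM in BRE, against 26.2, 25.8, 30.7 and 32.0 RPKM in WT. It was 3.43-fold lower with no overlap (-1.78 ± 0.09; adjusted p = 1.07e-08). Ngfr, the low-affinity nerve growth factor receptor, had 3.55, 2.33, 4.92 and 7.04 RPKM in BRE, against 17.0, 17.9, 28.5 and 26.7 RPKM in WT, 5.33-fold lower (adjusted p = 0.000461). Arsi, an arylsulfatase, had 0.599, 1.13, 1.54 and 1.31 RPKM in BRE, against 3.62, 6.42, 8.75 and 5.26 RPKM in WT, 5.29-fold lower (adjusted p = 0.00131). Crispld2, a secreted protein, was 5.30-fold lower and Sncg, a synuclein, 4.71-fold lower in BRE. Akr1c18, which inactivates progesterone, was unevenly low, with 7.04, 1.08, 0.593 and 7.50 RPKM in BRE, against 39.9, 22.1, 9.50 and 29.2 RPKM in WT; it was 9.22-fold lower (adjusted p = 0.0165), a call lost without BRE replicate 2 or WT replicate 4. Fbxo32, a ubiquitin ligase part of the atrophy programme in muscle, was 1.59-fold lower (adjusted p = 0.00422).

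Genes higher in BRE outside the clock included growth and transport genes. Ttc9 had 6.20, 7.13, 5.42 and 6.65 RPKM in BRE, against 2.79, 2.05, 1.92 and 2.29 RPKM in WT, 2.82-fold higher with no overlap (1.5 ± 0.17; adjusted p = 0.000237). Abhd12b was 2.52-fold higher (adjusted p = 0.00356), Epgn, the EGF-family ligand epigen, 2.08-fold higher (adjusted p = 0.0162), and Atp1b1, a sodium pump subunit, 2.03-fold higher (adjusted p = 0.0176). E2f2, a factor of the cell cycle, was 2.01-fold higher (adjusted p = 0.00146). H19, an imprinted noncoding RNA, had 6.58, 15.1, 3.5 and 3.56 RPKM in BRE, against 0.799, 1.15, 1.35 and 1.14 RPKM in WT; its 5.44-fold rise (adjusted p = 0.0316) was not called without BRE replicate 1 or 2, or without WT replicate 2, 3 or 4. Mrgprb2, a receptor known from mast cells, was 1.86-fold higher (adjusted p = 0.021). In bulk RNA, more cells of a type and more RNA per cell cannot be told apart. Summed hair follicle markers (7 genes) ranged from 690 to 1210 RPKM in BRE and from 536 to 985 RPKM in WT, and suprabasal markers from 13200 to 21400 RPKM in BRE and from 11900 to 16000 RPKM in WT; their part in these differences was not tested.

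Single genes of several pathway lists were called in BRE against WT, where 3.40% of all genes tested were. Among 11 tested glucocorticoid response genes, 2 were lower (Klf9, and Mt1, a metallothionein) and none higher, with a list median of -0.48 against -0.05 over all genes tested. The list median was also below 0 in RERE (-0.36) and EpiRE (-0.24) against the same WT libraries, with no call. Mt1 was called only narrowly (adjusted p = 0.0491), its ranges overlapped, and the call held in 6 of 25 alternatives. Of 11 hypoxia response genes 2 were lower: Egln3, an oxygen-sensing prolyl hydroxylase (2.01-fold, adjusted p = 0.0148), and Ankrd37 (1.68-fold, adjusted p = 0.0482), whose call held in 3 of 24 alternatives. Slc2a1, the glucose transporter GLUT1, was lower by 1.67-fold (adjusted p = 0.0126) and was the only called gene of 14 in glycolysis. The other lists with a call held 1 each: Ccnd2, a D cyclin, lower, 1 of 7; Prdx6, a peroxiredoxin, lower, 1 of 16 antioxidant genes; Xpc, the damage sensor of nucleotide excision repair, lower, 1 of 11; Zmat3, a p53 target, higher, 1 of 12; and Epcam, which Langerhans cells and keratinocytes of the follicle express, lower, 1 of 5 tested Langerhans and myeloid markers. Hspa1b, a heat shock chaperone, was higher, 1 of 15 (1.33-fold, adjusted p = 0.0422), but its near-identical neighbour Hspa1a may share its reads. None of 19 S phase, 20 G2/M, 13 basal, 19 suprabasal, 15 barrier lipid, 21 cholesterol synthesis or 19 oxidative phosphorylation genes was called in this or in any other comparison. The called division genes Cdc25b and E2f2 are not members of these lists. In the order above, the list medians in BRE against WT were 0.32, -0.49, -0.09, 0.34, 0.24, 0.36 and -0.06, against -0.05 over all genes tested. In RERE against WT they were 0.04, 0.1, -0.03, 0.33, 0.16, 0.31 and -0.06 (all genes tested, -0.04). In EpiRE against WT they were 0.45, -0.04, 0.02, 0.03, 0.16, 0.1 and -0.12 (all genes tested, 0.0). Several shifts were thus not particular to BRE, and these comparisons share the WT libraries. These shifts of whole lists were not tested, and the lack of calls is no proof of equal levels.

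How many genes were called in BRE against WT depended on the libraries, while 18 of the 37 named calls did not. The count of 375 was 138, 170, 649 and 212 without BRE replicates 1 to 4 in turn, and 1020, 110 and 116 without WT replicates 1, 3 and 4. When libraries were scaled by the median of ratios, 141 genes were higher and 153 lower in BRE, in place of 113 and 262. The calls of Atp1b1, Mrgprb2, Xpc, Zmat3, Prdx6, Epcam, Ccnd2, Hspa1b, Ankrd37 and Mt1 were lost without WT replicate 3 and also without WT replicate 4, and that of Epgn without WT replicate 3. Without BRE replicate 2 all of these 11 calls were lost too, and without BRE replicate 1 those of Mrgprb2, Zmat3, Prdx6, Epcam, Ccnd2, Hspa1b, Ankrd37, Mt1 and Egln3. The 18 calls that held under every alternative that tested the gene include Nr1d1, Nr1d2, Cry1, Npas2, Dbp, Per3, Klf9, Cdc25b and Ngfr, each under 25. They also include Arsi, Crispld2, Sncg and Ttc9, each of which was tested in 24 alternatives.

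**Figure D4:**
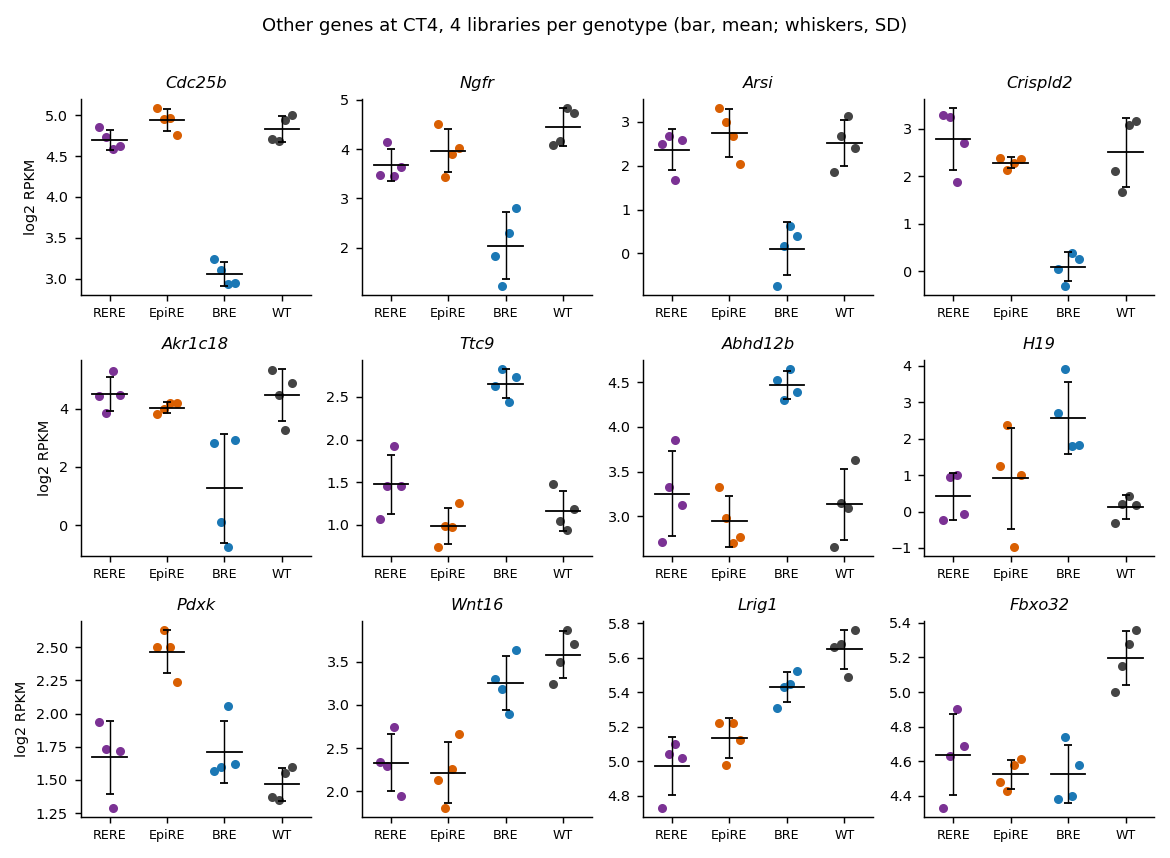
Levels of 12 genes outside the core clock at CT4 in log2 RPKM (y axes, each on its own range) for RERE, EpiRE, BRE and WT, with points for libraries, bars for means and whiskers for the SD of 4 libraries. Cdc25b, Ngfr, Arsi, Crispld2 and Akr1c18 have their lowest mean and Ttc9, Abhd12b and H19 their highest in BRE (H19 overlapping with EpiRE), Pdxk is highest in EpiRE, and Wnt16 and Lrig1 are lower in RERE and EpiRE than in WT.

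EpiRE against WT called 2 of the 19 core clock genes, 1 higher and 1 lower in EpiRE, where 0.172% of all genes were called (0.0905% higher and 0.0815% lower). Cry1 had 9.25, 15.7, 12.1 and 8.81 RPKM in EpiRE, against 5.59, 3.23, 3.98 and 3.35 RPKM in WT. It was 2.83-fold higher, with no overlap (1.5 ± 0.19; adjusted p = 0.00761). Nr1d1 had 103, 65.6, 75.5 and 76.7 RPKM in EpiRE, against 130, 147, 161 and 155 RPKM in WT, 1.87-fold lower (-0.90 ± 0.15; adjusted p = 0.033). Dbp overlapped with WT (58.2, 28.3, 52.5 and 23.7 RPKM in EpiRE, against 26.8, 54.9, 56.8 and 48.8 RPKM in WT), with an interval of -1.29 to 0.80 for the difference. Per2 had 7.02, 7.79, 12.3 and 2.19 RPKM in EpiRE, against 1.17, 2.72, 1.56 and 0.777 RPKM in WT; its difference of 2.14 (interval 0.71 to 3.58) did not pass (adjusted p = 0.162).

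The other genes called in EpiRE against WT were few and of many kinds. Pdxk (ENSMUSG00000032788; chromosome 10, 78436744 to 78464975), pyridoxal kinase, which makes active vitamin B6, had 5.65, 6.21, 5.67 and 4.72 RPKM in EpiRE, against 2.59, 2.55, 2.93 and 3.04 RPKM in WT. It was 2.00-fold higher with no overlap (1.00 ± 0.14; adjusted p = 0.018). Tnxb, a tenascin of the matrix, was 1.44-fold higher (adjusted p = 0.0415), Adgrl1, an adhesion receptor, 1.59-fold higher (adjusted p = 0.0375), Dnajc3, a chaperone partner of the endoplasmic reticulum, 1.33-fold higher (adjusted p = 0.0375) and Mycl, a MYC family factor, 1.26-fold higher (adjusted p = 0.0383). Ccr4, a chemokine receptor known from T cells that home to skin, was 1.40-fold higher (adjusted p = 0.0375); summed T cell markers ranged from 95.2 to 134 RPKM in EpiRE and from 95.8 to 113 RPKM in WT, and their part was not tested. Wnt16 (ENSMUSG00000029671; chromosome 6, 22288227 to 22298522), a WNT ligand, had 4.39, 3.5, 4.8 and 6.35 RPKM in EpiRE, against 9.44, 11.3, 14.6 and 13.1 RPKM in WT, 2.57-fold lower with no overlap (-1.36 ± 0.20; adjusted p = 0.018). Ctgf, a matricellular growth factor, was 2.38-fold lower, Nqo1, a quinone reductase of the NRF2 response, 1.64-fold lower, and Fbxo32 1.59-fold lower. Copz2, Ccdc181 and Lrig1 were lower by 1.59-fold, 1.45-fold and 1.43-fold.

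None of the 15 named calls in EpiRE against WT held under all 25 alternatives, all but those of Cry1 and Pdxk were lost without WT replicate 3 or without WT replicate 4, and the fit to the libraries of these genotypes alone called no gene. Beside the counts without WT replicates 1 and 2 given above, 4 and 2 genes were called without WT replicates 3 and 4, 7 and 1 without EpiRE replicates 1 and 2, 5 and 3 without RERE replicates 2 and 4, and 12 and 9 without BRE replicates 1 and 4. Cry1 was lost in only 2 alternatives, its difference staying between 1.3 and 1.67.

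RERE against WT called Lrig1 alone. Lrig1 (ENSMUSG00000030029; chromosome 6, 94604529 to 94700158), a brake on EGF receptor signalling that marks stem cells of the upper follicle, had 26.5, 32.9, 34.4 and 32.4 RPKM in RERE, against 50.7, 51.3, 45.0 and 54.1 RPKM in WT. It was 1.6-fold lower, with no overlap (-0.68 ± 0.09; adjusted p = 0.00665). The call was lost in the fit to the libraries of these genotypes alone and with the spread of all 96 libraries. Summed hair follicle markers ranged from 457 to 689 RPKM in RERE and from 536 to 985 RPKM in WT, and their part was not tested. In EpiRE Lrig1 was lower too, as given above, and in BRE it lay -0.22 from WT and was not called (interval -0.40 to -0.04); these comparisons share the WT libraries. Wnt16 had 5.07, 4.91, 6.74 and 3.88 RPKM in RERE, against 9.44, 11.3, 14.6 and 13.1 RPKM in WT, with no overlap, and did not pass (-1.25 ± 0.20; adjusted p = 0.078).

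No core clock gene of 19 was called in RERE against WT, which is no proof of equal levels. Nr1d1 had 132, 78.2, 85.7 and 117 RPKM in RERE, against 130, 147, 161 and 155 RPKM in WT, with an interval of -0.87 to -0.23 (adjusted p = 0.191). Nr1d2 had 27.1, 24.6, 16.1 and 23.4 RPKM in RERE, against 28.7, 35.0, 32.7 and 30 RPKM in WT, a difference of -0.50 with no overlap (interval -0.83 to -0.16; adjusted p = 0.213). Cry1 had 6.36, 4.57, 6.70 and 6.79 RPKM in RERE, against 5.59, 3.23, 3.98 and 3.35 RPKM in WT (interval 0.21 to 1.02; adjusted p = 0.205). The interval was narrower for Clock (-0.03 to 0.41) than for Npas2 (-0.58 to 0.68) and Per2 (-1.45 to 1.42). limma-voom on recovered reads called 2 genes in this comparison, and the replicate block gave 2 as well. The count was 6 without EpiRE replicate 2, and 2 without RERE replicate 3, EpiRE replicate 4 or BRE replicate 2.

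RERE replicate 3 stood far from the other RERE libraries in some clock genes, though hardly over all genes tested. Its root mean square deviation from the group mean was 0.214, against 0.202, 0.195 and 0.182 (log2) in RERE replicates 1, 2 and 4. In RERE replicate 3 Dbp stood at 5.32 RPKM, against 48.3, 25.9 and 26.1 RPKM in RERE replicates 1, 2 and 4, and Per2 at 0.316 RPKM, against 3.96, 1.51 and 1.96 RPKM. It was the lowest or the highest of the 4 RERE libraries in 14 of the 19 core clock genes (73.7%), against 52.3% of all genes tested: lowest in 12, among them Dbp, Tef, Per1, Per2, Per3, Ciart and Nr1d2, and highest in Arntl and Npas2. EpiRE replicate 4 was also extreme in 14 core clock genes (73.7%, against 46.9% of all genes tested). It was lowest in Dbp, Tef, Hlf, Per2, Per3, Nr1d2, Cry1, Cry2 and Usp2 and highest in Arntl, Npas2, Nfil3, Per1 and Bhlhe40. In RERE replicate 3, by contrast, Per1 and Bhlhe40 were lowest. BRE replicate 2 was extreme in 15 (78.9%, against 53.6%), WT replicate 1 in 13 (68.4%, against 54.9%) and RERE replicate 1 in 12 (63.2%, against 54.6%). WT replicate 1 was lowest in Dbp, Nr1d1, Nr1d2, Tef, Per1, Cry2, Bhlhe40 and Usp2 and highest in Arntl, Arntl2, Clock, Cry1 and Rora.

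The spread within a group differed between clock genes and the rest. Over the 19 core clock genes the median SD between the 4 libraries was 0.361 in RERE, 0.327 in EpiRE, 0.199 in BRE and 0.258 in WT (log2). Over all genes tested it was 0.114 in RERE, 0.136 in EpiRE, 0.145 in BRE and 0.158 in WT. Per2 had the largest SD of the core clock in every genotype, 1.54 in RERE, 1.06 in EpiRE, 0.83 in BRE and 0.76 in WT. These are descriptions of 4 libraries each, and the differences in spread were not tested.

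EpiRE against BRE set the opposite clock sites side by side. Of the 19 core clock genes 8 were called, 6 higher and 2 lower in EpiRE, where 1.74% of all genes were called (1.04% higher and 0.697% lower). Nr1d1 was 17.0-fold higher in EpiRE than in BRE (4.09 ± 0.15; adjusted p = 1.12e-10), Nr1d2 7.11-fold, Dbp 8.22-fold, Per3 5.56-fold, Ciart 3.75-fold and Tef 2.27-fold. Per3 had 15.0, 12.9, 23.6 and 7.69 RPKM in EpiRE, against 3.02, 2.31, 2.14 and 2.45 RPKM in BRE, with no overlap. Tef had 51.6, 36.1, 57.3 and 29.6 RPKM in EpiRE, against 18, 16, 20.5 and 20.2 RPKM in BRE (adjusted p = 0.0436), a call that 13 of 25 alternatives lost. Npas2 was 4.50-fold lower and Cry1 3.42-fold lower in EpiRE than in BRE. EpiRE and BRE libraries did not overlap in any of these 8 genes. They were picked by their adjusted p in the same libraries, so this adds no separate support.

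Outside the clock, Cdc25b had the smallest p in EpiRE against BRE, which uses the same BRE libraries as BRE against WT. It had 34.1, 30.9, 31.1 and 27.1 RPKM in EpiRE, against 9.44, 8.60, 7.62 and 7.72 RPKM in BRE, 3.69-fold higher (1.89 ± 0.09; adjusted p = 6.64e-09). Arsi was 6.24-fold, Crispld2 4.57-fold and Ngfr 3.8-fold higher in EpiRE, and Ccnd2, a D cyclin, 1.96-fold higher (adjusted p = 0.0179). Ttc9 was 3.19-fold lower, Abhd12b 2.87-fold lower, Slc38a4, an amino acid transporter, 2.90-fold lower, and Dab1, an adaptor of reelin signalling, 2.19-fold lower in EpiRE. Nqo1 had 4.51, 3.35, 3.5 and 3.91 RPKM in EpiRE, against 6.81, 6.58, 6.62 and 6.79 RPKM in BRE, 1.77-fold lower (adjusted p = 0.00312). Acadl, a fatty acid oxidation enzyme, was 1.3-fold lower (adjusted p = 0.0164), 1 of 13 in its list, where 1.74% of all genes tested were called. The calls of Ccnd2 and Acadl were lost without EpiRE replicate 1, BRE replicate 1 or BRE replicate 2, and that of Ccnd2 also without BRE replicate 4. The Ciart call was lost without EpiRE replicate 1 or 2, or BRE replicate 1 or 4. Of 192 calls 115 were higher and 77 lower in EpiRE, and 84 higher and 101 lower under median-of-ratios scaling. The count was 65, 106 and 120 without EpiRE replicates 1, 3 and 4, then 73, 89 and 85 without BRE replicates 1, 2 and 4, and 493 without BRE replicate 3.

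RERE against BRE, in which K14Cre is added to Syt10-Cre, called 4 of the 19 core clock genes, 2 higher and 2 lower in RERE, where 0.507% of all genes were called (0.299% higher and 0.208% lower). Nr1d1 had 132, 78.2, 85.7 and 117 RPKM in RERE, against 4.78, 4.41, 4.83 and 4.58 RPKM in BRE, 21.7-fold higher (4.44 ± 0.15; adjusted p = 3.08e-11). Nr1d2 was 5.97-fold higher, and Cry1 6.33-fold and Npas2 3.35-fold lower in RERE than in BRE. Dbp, 48.3, 25.9, 5.32 and 26.1 RPKM in RERE against 4.18, 4.40, 4.37 and 5.6 RPKM in BRE, did not pass (2.15 ± 0.49; adjusted p = 0.0681), its ranges overlapping through RERE replicate 3. Cdc25b was 3.13-fold higher in RERE (adjusted p = 5.32e-08), Crispld2 6.47-fold, Arsi 4.77-fold and Ngfr 3.11-fold. Ttc9 was 2.27-fold, Abhd12b 2.32-fold and E2f2 1.79-fold lower in RERE. The calls of Ngfr and Abhd12b were lost without BRE replicate 1, that of Ngfr also without RERE replicate 2, and that of Abhd12b also without RERE replicate 1 or 4. The count of 56 became 32 without RERE replicate 1 and 35 without BRE replicate 1, and 33 among genes of at least 2 log2 RPKM.

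RERE against EpiRE, which differ in Syt10-Cre, gave no call, with 742 genes at an unadjusted p under 0.05, 0 calls with limma-voom and 1 without EpiRE replicate 4. Some differences were as large as those called elsewhere. Cry1 had 6.36, 4.57, 6.70 and 6.79 RPKM in RERE, against 9.25, 15.7, 12.1 and 8.81 RPKM in EpiRE, with no overlap (-0.89; interval -1.29 to -0.49; adjusted p = 0.381). Pdxk had 3.82, 3.33, 2.44 and 3.29 RPKM in RERE, against 5.65, 6.21, 5.67 and 4.72 RPKM in EpiRE (-0.80; interval -1.11 to -0.49; adjusted p = 0.25). With the spread taken from all 96 libraries 4 genes were called.

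Whether a difference belonged to CT4 was asked by testing it against the mean of the same difference at the other 5 times, over all 96 libraries and 11028 genes. EpiRE minus WT differed so in 26 genes (0.236%), and BRE minus WT in 4 (0.0363%). RERE minus WT and EpiRE minus BRE did so in 0 genes each, with 1537 and 320 at an unadjusted p under 0.05 and 0 each with limma-voom. In EpiRE the leading gene was Cry1, which lay 1.5 above WT at CT4 and -0.11 from it on average at the other times. The contrast was 1.61 ± 0.21 (adjusted p = 2.54e-07). That average joins differences of both signs. In EpiRE Cry1 was at 3.65, 3.64, 3.69, 3.97 and 4.02 log2 RPKM at CT0, CT8, CT12, CT16 and CT20. In WT it was at 3.53, 2.79, 4.16, 4.47 and 4.55 log2 RPKM. Pdxk gave 1.00 at CT4 against -0.17 at the other times (adjusted p = 7.94e-07), Tnxb 0.53 against -0.06 (adjusted p = 0.00743), and Sod2, the mitochondrial superoxide dismutase, 0.32 against -0.06 (adjusted p = 0.00937). Rnasek ran the other way, at -0.40 against 0.08 (adjusted p = 0.00937). Cry1, Pdxk and Tnxb held under all 24 alternatives run for this contrast. The count of 26 became 257, 66, 8 and 7 without WT replicates 1 to 4 in turn. It was 4, 9 and 52 without EpiRE replicates 2, 3 and 4, and 53 under median-of-ratios scaling.

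In BRE the differences of Cry1 and Nr1d1 from WT were wider at CT4 than their mean over the other 5 times. Cry1 lay 3.28 above WT at CT4 and 1.34 above it at the other times (contrast 1.93 ± 0.21; adjusted p = 2.49e-10). Nr1d1 lay -4.99 from WT at CT4 and -3.09 on average at the other times (adjusted p = 0.00108), a call lost with limma-voom on recovered reads (adjusted p = 0.0589). At CT8 alone Nr1d1 was at 2.11 log2 RPKM in BRE, against 7.37 log2 RPKM in WT, which is wider than at CT4. For Pdxk the contrast came from the other times, with 0.24 at CT4, where it was not called, and -0.67 at the others (adjusted p = 0.000486). The levels show where these contrasts lie. Cry1 in WT was lowest at CT4 (1.98 log2 RPKM, between 2.79 and 4.55 at the other times), while in BRE it was 5.25 at CT4 and between 5.11 and 5.46 elsewhere. Pdxk in WT was likewise lowest at CT4 (1.47, against 1.94 to 3.01). Without WT replicates 1 and 2 the count for BRE was 19 and 9, without BRE replicate 2 it was 8, and without EpiRE replicate 2 it was 7.

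**Figure D5:**
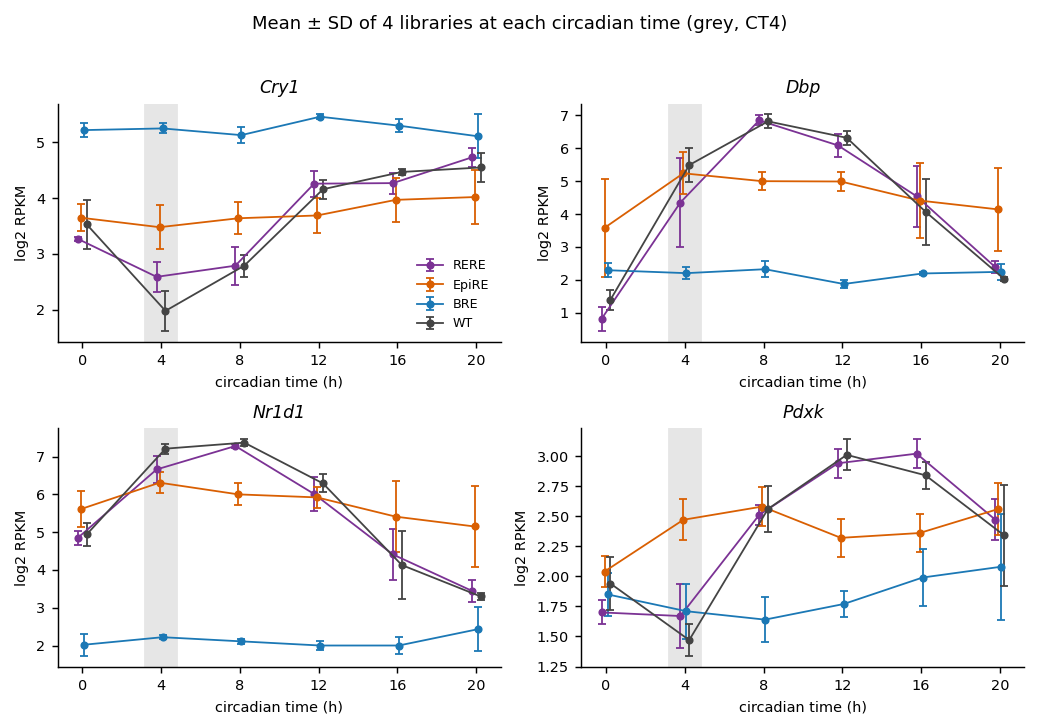
Mean level (log2 RPKM, y axes) of Cry1, Dbp, Nr1d1 and Pdxk at 6 circadian times (x axis, h) in RERE, EpiRE, BRE and WT, with the SD of 4 libraries as whiskers and CT4 in grey. At CT4 WT and RERE stand near their lowest Cry1 and Pdxk levels, while BRE stays between 5.11 and 5.46 for Cry1 and between 1.87 and 2.32 for Dbp.

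Near the targeted locus, of 98 tested genes within 10 Mb of Arntl, none was called in RERE or EpiRE against WT and 1 in BRE against WT (Calcb, which was higher in BRE, adjusted p = 0.0426), where 3.40% of all genes were called. In EpiRE against BRE 3 of these 98 were called, where 1.74% of all genes were: Calcb and Ppfibp2 were lower and Eef2k higher in EpiRE (-1.13, -0.40 and 0.31, log2). RERE against EpiRE and RERE against BRE called none of them. Away from this locus, on chromosome 1 (173962568 to 173982744), lies Ifi202b, an interferon-inducible gene. It was chosen here after its values were seen for its small p. Ifi202b had 3.07, 3.38, 3.01 and 3.04 log2 RPKM in BRE, against 4.00, 4.05, 4.03 and 3.94 log2 RPKM in WT (-0.88 ± 0.08; adjusted p = 1.25e-05). It lay at 3.90 to 4.17 log2 RPKM in RERE and at 4.06 to 4.14 log2 RPKM in EpiRE. Ifi202b belongs to a family of similar genes among which reads may be shared.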

How the data were processed

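Epidermal RNA of 96 mice was sequenced, and the 16 libraries at CT4 are reported. Per the submitters' processing notes, reads were handled with Trimmomatic 0.36, HISAT2 2.2.1 (mm10), SAMtools 1.3.1, featureCounts 1.6.0 and edgeR. The authors deposited log2 RPKM values for 22497 genes in a table for each genotype. The files fit a prior of 0.25 reads. The use of molecular identifiers against duplicates, and of strand in counting, is not stated. Entrez and symbol columns of other tables, deposited by the authors, served only for annotation (other), and 96 columns of values there, whose codes match no label, were not used. Whole reads were recovered for 22352 genes (99.36%; tolerance 0.1 read) and 145 used an annotated length; gene reads summed to 1.037 to 1.051 times the totals, so depth is approximate. These reads served depth and limma-voom alone.

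Genes of at least 0 mean log2 RPKM were tested with limma 3.58.1 in R 4.3.3 (moderated test with mean trend, 15.9 degrees of freedom, Benjamini-Hochberg adjustment over 11045 genes, two-sided). CT4 was compared with the other 5 times in a fit of 24 groups. Tables and figures used Python 3.11.15, numpy 2.4.6, scipy 1.17.1, pandas 2.3.3 and matplotlib 3.10.9. Named genes were the clock lists, the 8 largest called differences per direction and comparison (at least 5 RPKM in the higher group, ranges not overlapping), up to 4 genes of smallest p in each other list with a call, and the 5 of smallest p against the other times. A few genes that these rules would name are not reported here, and stay in every fit and in counts over all genes. Members and lists were chosen with earlier results of these data known. Alternatives changed the filter, scaling, trend, libraries, replicate block or test, or left out each library.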

Additional observations from a re-analysis of the deposited data

Results flagged for a closer look

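The differences of 7 named genes between EpiRE and WT were not the same at CT4 as on average at the other 5 times, by a test of that contrast over 96 libraries. The contrasts (log2) were 1.61 for Cry1, 1.17 for Pdxk, 0.66 for Adgrl1, 0.59 for Tnxb, 0.45 for Dnajc3, 0.38 for Sod2 and -0.48 for Rnasek. Between BRE and WT they were 1.93 for Cry1, 0.92 for Pdxk and -1.90 for Nr1d1.

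In 22 of 432 groups of 4 libraries a named gene had a library far from the other 3 by Dixon's criterion, and chance gives about 1 in 20 such groups. BRE replicate 3 and RERE replicate 3 each held 4 of them. In RERE replicate 3 Acadl was high at 5.45 log2 RPKM, while Ccnd1 at 4.24, Ddb2 at 1.96 and Mrgprb2 at 1.34 were low. In RERE replicate 2 Cry1 was low at 2.19. In EpiRE replicate 2 Arntl2 was low at 3.08 and Por high at 4.44, and in EpiRE replicate 3 Ppara was high at 3.5. In BRE replicate 3 Ccnd2 at 6.33 and Pdxk at 2.06 were high, and E2f2 at 3.06 and Txnrd1 at 3.61 low. In BRE replicate 2 Cd207, a Langerhans cell lectin, was high at 4.01 (the other BRE libraries lay between 1.93 and 2.23), as were Epgn at 4.94 and Fbxw11 at 3.59, and in BRE replicate 4 Rnasek was low at 5.78. In WT replicate 1 Dab1 was low at 3.08. In WT replicate 2 Per3 was high at 3.41, and Hspa1a at 4.26 and Slc2a1 at 5.43 were low. In WT replicate 3 Ercc5 was low at 3.51 and Sod2 high at 3.23.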

How the results depend on the processing

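No named difference that was called, as reported or in the alternative, changed sign under any of the 25 alternatives. Where the compared groups did not overlap at CT4, leaving out a library cannot change the sign there, so this adds no support for those genes. Changes of sign where neither fit called the gene were not counted. Of 16344 recomputed values, 15746 kept their side of the threshold, 501 lost a call and 97 gained one. These values include differences that were not called as reported, so the share kept is not a share of calls. Of the 108 named calls, 48 held under every alternative that tested the gene. With all genes tested the counts became 8 for EpiRE minus WT and 1 for RERE minus EpiRE, and against the other times 2 for RERE minus WT, 14 for EpiRE minus WT, 7 for BRE minus WT and 2 for EpiRE minus BRE. Among genes of at least 2 log2 RPKM, RERE minus BRE had 33. Median-of-ratios scaling gave 1 for RERE minus WT, 53 for EpiRE minus WT and 11 for BRE minus WT against the other times. Without the mean trend RERE minus WT had 2, as with limma-voom. Fits to the compared genotypes alone gave 0 for RERE minus WT, 0 for EpiRE minus WT, 121 for BRE minus WT and 94 for EpiRE minus BRE, and against the other times 19 for RERE minus WT, 8 for EpiRE minus WT and 10 for BRE minus WT. The spread of all 96 libraries gave 0 for RERE minus WT, 72 for EpiRE minus WT, 563 for BRE minus WT, 319 for EpiRE minus BRE, 4 for RERE minus EpiRE, 110 for RERE minus BRE and 533 for any difference. Same-numbered libraries correlated at -0.247 to 0.387 in their deviations, the highest being replicate 2 of EpiRE and BRE. Libraries of different numbers were not compared, so whether same-numbered libraries share more than a number was not tested. The replicate block gave 2 for RERE minus WT, 4 for EpiRE minus WT, 1 for RERE minus EpiRE and 9 for BRE minus WT against the other times. Leaving out each library gave 1 to 156 for RERE minus WT, 0 to 435 for EpiRE minus WT, 110 to 1020 for BRE minus WT, 65 to 493 for EpiRE minus BRE, 0 to 1 for RERE minus EpiRE, 32 to 71 for RERE minus BRE and 96 to 561 for any difference. The last was 126 without EpiRE replicate 1, 96, 124, 359 and 119 without BRE replicates 1 to 4, and 561 and 111 without WT replicates 1 and 4. Against the other times the ranges were 0 to 103 for RERE minus WT (103 without WT replicate 1), 4 to 257 for EpiRE minus WT, 4 to 19 for BRE minus WT and 0 to 0 for EpiRE minus BRE. The cause of these shifts was not tested. Genes near 1 RPKM rest on few reads, such as 17 to 42 for Ciart in BRE, so small differences there were not detectable at this depth.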

Other observations

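Red blood cell genes summed to between 1.61 and 17.4 RPKM in EpiRE and between 1.13 and 4.07 RPKM in RERE, over the 2 genes of that list in the tables. They summed to between 1.4 and 4.95 RPKM in BRE and between 0.536 and 2.71 RPKM in WT, so the ranges overlapped. Hbb-bs was at 3.76 and 2.96 log2 RPKM in EpiRE replicates 2 and 4, against -0.10 and 0.54 in replicates 1 and 3. It was not called in EpiRE against WT (limma, adjusted p = 0.156).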
